A study of Sus scrofa with 6 samples.

Results

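LAMP5, THY1, VSNL1, NRN1 and SLC30A3 are 5 genes of neurons that acquire their axons, synapses and signalling proteins. Their RNA was read in cortical tissue from embryonic pigs at embryonic day 60 (E60), when the cortical surface is still smooth, and at embryonic day 80 (E80), when the primary folds have formed. They are 5 of the 6765 genes named on the Affymetrix Pig Genome Array, and 9 of its 23999 probe sets read them, out of 10069 that carry exactly 1 gene symbol. Every probe set whose only symbol is one of the 5 names was taken, with no filter on low signals, so that 1 probe set stands for LAMP5, 3 for THY1, 1 for VSNL1, 2 for NRN1 and 2 for SLC30A3. The probe sets of a gene are called the first, the second and the third from bright to dim. Other genes are called measured only where a probe set carries their symbol alone, and 13732 of the 23999 probe sets carry no symbol. A gene not measured in this sense may still be read by a probe set without a symbol. The genes were chosen because of their values at E80 and E60 on these same arrays, so their differences between the days are given as a description and carry no p-value. LAMP5 (under its former name) and SLC30A3 (as zinc transporter 3) also stand in the list of changed transcripts that the study drew from these arrays. The study set a threshold of 3-fold by its own measure. The probe set of SLC30A3 listed there is the first, which differed 2.57-fold by the mean log2 signals used here.

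Total RNA of the cerebral cortex was labelled from 3 embryos at E60 (arrays 1, 2 and 3) and from 3 embryos at E80 (arrays 4, 5 and 6), with 1 array per embryo. The labels name no treatment and no altered allele, and neither the breed nor the litter of a single array is given in the sources used here. Each value is a linear MAS5 signal, which combines the probes of a set into 1 number and is scaled to a common level on every array. A signal has no meaning relative to that of another probe set, since each set binds its own transcript with its own strength, so only signals of the same probe set are compared. Differences are mean log2 signals of E80 minus those of E60, and their standard errors (SE) come from limma. Cortical tissue holds many cell types, and in such bulk RNA more cells of a type and more RNA per cell cannot be told apart.

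Neurons leave the cell cycle in the germinal zones, migrate to the cortical plate and only then extend their axons and build synapses, and the genes described here belong to different steps of that course. LAMP5 is a brain member of the lysosome-associated membrane protein family that sits in endosomal membranes of neurons, and in the adult cortex its RNA marks a class of interneurons. THY1 (CD90) is a small immunoglobulin-like protein held on the axon surface by a glycosylphosphatidylinositol (GPI) anchor, and it appears on neurons as axon growth ends. VSNL1 (visinin-like 1) is a neuronal calcium sensor that binds membranes when calcium rises. SLC30A3 (ZnT3) loads zinc into the synaptic vesicles of glutamatergic neurons. NRN1 (neuritin) is a GPI-anchored protein that promotes the growth of neurites and is induced by neuronal activity.

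LAMP5, THY1, VSNL1 and SLC30A3 had higher mean signals at E80 and NRN1 had a lower one, on each of their probe sets. The differences ran from 0.68 to 2.60 log2 units for the 7 probe sets that were higher, and were -0.91 and -1.22 for the probe sets of NRN1. On 8 of the 9 probe sets all arrays of one day lay above all arrays of the other, an arrangement that 23.6% of all 23999 probe sets showed. The exception was the second, dim probe set of SLC30A3. Since the genes were chosen on this contrast, nothing is read from that count.

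**Figure D1:**
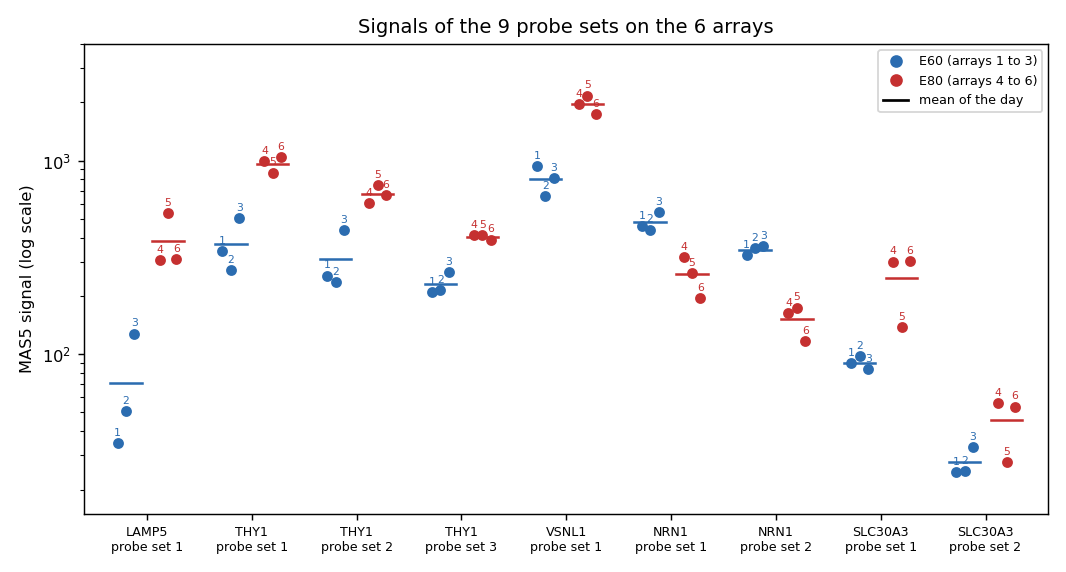
MAS5 signal (vertical axis, log scale) of the 9 probe sets on each array, with E60 in blue and E80 in red, the array number beside each point and the mean of each day as a bar. The days are apart on every probe set except the second of SLC30A3, where array 5 lies among the E60 arrays, and NRN1 is the only gene with the red points below the blue ones.

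LAMP5 showed the largest difference between the days among the 9 probe sets and also the widest spread within a day. The E60 embryos gave signals of 34.9, 51.0 and 128 on arrays 1, 2 and 3, and the E80 embryos 307, 533 and 311 on arrays 4, 5 and 6. The lowest E80 array was thus still above the highest E60 array, by 1.27 log2 units, although the E60 arrays themselves ranged widely. The mean was 71.2 ± 49.6 (SD, n = 3) at E60 and 384 ± 129.5 (SD, n = 3) at E80, a difference of 2.60 log2 units (SE 0.44) or 6.07-fold. Without array 3, the highest at E60, the difference was 3.14 log2 units. In size, without regard to direction, the difference over all 6 arrays stood at the 99.8th percentile of all probe sets. Since LAMP5 was chosen on this contrast, nothing is read from that rank.

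The spread of LAMP5 between embryos of the same day was also large for a probe set of its brightness. Its SD within a day, pooled over both days, was 0.75 log2 units, against a median of 0.19 for probe sets of similar signal. The 2 family members measured beside it, the ubiquitous lysosomal membrane proteins LAMP1 and LAMP2, did not pass the test. LAMP1 had a log2 difference of 0.13 (SE 0.08, adjusted p = 0.469 from limma) and LAMP2 one of 0.22 (SE 0.19, adjusted p = 0.608).

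THY1 was higher at E80 on all 3 of its probe sets, which were designed on different sequence records and read the same RNA of the same embryos. The first probe set read 340.4, 272 and 506 at E60 and 993, 865 and 1039 at E80. The second read 255, 237 and 436 at E60 and 602, 744 and 665 at E80. The third read 210.1, 214 and 267 at E60 and 411, 411 and 391 at E80. On each of them array 3 was the highest of the E60 arrays and still below every E80 array.

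The size of the THY1 difference depended on the probe set. It was 1.42 log2 units (SE 0.21) on the first, 1.17 (SE 0.22) on the second and 0.82 (SE 0.12) on the third, or 2.67-fold, 2.25-fold and 1.77-fold. The E80 embryos were closer to each other than the E60 embryos on every probe set of THY1. The coefficient of variation (SD over mean) was 9.30%, 10.6% and 2.85% at E80, against 32.3%, 35.6% and 13.7% at E60.

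THY1 is also known from T cells, fibroblasts and vessels, so the markers of those cells were read on the same arrays. The 7 measured T cell markers, with CD3D, CD3E and CD3G among them, had a summed signal of 86.7 to 101.2 at E60 and 90.6 to 116 at E80. Much of this sum came from CD8A alone, with 39.2 to 66.2 at E60 and 47.5 to 69.7 at E80. The summed signal of 6 fibroblast and meningeal genes was 1573 to 1878 at E60 and 682 to 1340 at E80, and the part of these cells in the THY1 values was not tested. None of the 6 passed. LUM, COL1A2 and FBLN1 were lower at E80 without overlap, as were 14.4% of all probe sets. DCN and COL6A2 were lower on average with overlapping days, and COL3A1 was higher on average (47.2 to 53.2). Of the 8 endothelial markers 7 had a lower mean log2 signal at E80, while 44.3% of all probe sets had a higher one. The sum of the 8 was 1315 to 1417 at E60 and 1023 to 1292 at E80.

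VSNL1 was higher at E80 on its only probe set. Its signal was 932, 653 and 811 on the E60 arrays and 1960, 2168 and 1731 on the E80 arrays. Every E80 embryo lay well above every E60 embryo, with 0.89 log2 units between the nearest pair. The means were 799 ± 140.1 (SD, n = 3) and 1953 ± 218 (SD, n = 3), a difference of 1.30 log2 units (SE 0.14) or 2.46-fold. Array 3, which stood out for LAMP5 and THY1, lay between the other E60 arrays for VSNL1.

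Of the other neuronal calcium sensors, 5 of 12 listed genes were measured, and 1 rose and none fell, while 0.933% of all probe sets rose. Neurocalcin delta (NCALD) rose from a mean of 329 ± 47.8 (SD, n = 3) at E60 to one of 556 ± 76.3 (SD, n = 3) at E80, a difference of 0.76 on the log2 scale (SE 0.15, adjusted p = 0.0449 from limma). Its other 3 probe sets had log2 differences of 0.43, 0.28 and 0.19 and did not pass (adjusted p = 0.0816, 0.430 and 0.570), and NCALD passed in none of the 6 fits that left out 1 array. The potassium channel partners KCNIP4 (0.53, adjusted p = 0.129), KCNIP1 (-0.24, adjusted p = 0.334) and KCNIP2 (0.64, adjusted p = 0.399) did not pass.

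SLC30A3 was higher at E80 on both probe sets, but unevenly among the E80 embryos. The first probe set read 89.8, 97.4 and 83.8 at E60 and 300.4, 138 and 302 at E80. Arrays 4 and 6 were alike, and array 5 lay nearer to the E60 arrays than to them while still above all E60 arrays. The means were 90.3 ± 6.83 (SD, n = 3) and 247 ± 94.2 (SD, n = 3), a difference of 1.36 log2 units (SE 0.29) or 2.57-fold, and without array 5 the difference was 1.74 log2 units.

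The second probe set of SLC30A3 was dim and again had array 5 as the lowest E80 array, but another order of the arrays at E60. It read 24.6, 25.0 and 33.2 at E60 and 55.8, 27.8 and 53.7 at E80, so that array 5 fell within the E60 range and array 3 was the highest at E60, where it was the lowest on the first probe set. The difference was 0.68 log2 units (SE 0.32), and 1.00 without array 5. Array 5 also had the highest fibroblast and meningeal sum of the E80 arrays, 1340 against 764 and 682 on arrays 4 and 6, and the part of this in the SLC30A3 value was not tested.

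Among the other zinc transporters and zinc-binding proteins, 10 of 28 listed genes were measured and 1 rose, beside 0.933% of all probe sets. Metallothionein 3 (MT3), the zinc-binding metallothionein of the brain, rose from a mean of 906 ± 93.9 (SD, n = 3) at E60 to one of 1774 ± 190.3 (SD, n = 3) at E80, a difference of 0.97 on the log2 scale (SE 0.11, adjusted p = 0.0159 from limma). The calls of MT3 and of all other genes named here as risen or fallen were lost without array 1, without array 2 or without array 4. No other transporter of the list passed. The metallothionein MT1A (1.64, adjusted p = 0.318), the importer SLC39A4 (0.33, adjusted p = 0.420) and the Golgi transporter SLC30A5 (-0.31, adjusted p = 0.508) had the smallest p-values among those that did not pass. The MT1A probe set was dim and its difference imprecise (SE 0.78). It read 6.54, 1.72 and 11.8 at E60 and 10.7, 10.7 and 34.6 at E80.

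NRN1 went the opposite way to the other 4 genes. Its first probe set read 458, 440.1 and 540.0 at E60 and 317, 263 and 195 at E80. Its second read 324, 354 and 363 at E60 and 162, 174 and 117 at E80. On both, every E80 array lay below every E60 array and array 6 was the lowest of all.

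The difference of NRN1 was -0.91 log2 units (SE 0.18) on the first probe set and -1.22 (SE 0.16) on the second, or 1.88-fold and 2.33-fold lower. Without array 6 these were -0.72 and -1.05. The E60 embryos were closely alike, with a coefficient of variation of 11.1% and 5.81%, against 23.7% and 19.8% at E80. Array 6 is the array on which the choroid plexus gene TTR had a signal of 4475, against 15.1 or less on the others, and whether choroid plexus tissue on that array bears on the low NRN1 signal was not tested.

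NRN1 is known as a gene induced by neuronal activity and neurotrophins, and 14 of 31 listed genes of that kind were measured. None passed in limma at an adjusted p under 0.05. At an unadjusted p under 0.05, 4 of the 14 were higher at E80, as were 7.12% of all probe sets, and 2 were lower, as were 10.8%. Secretogranin II (SCG2), a secretory granule protein, had a log2 difference of 0.81 (SE 0.16, adjusted p = 0.0518), the phosphatase DUSP6 one of 0.59 (adjusted p = 0.0988) and the immediate early gene FOS one of 0.80 (adjusted p = 0.101).

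NRN1 and THY1 share the GPI anchor, and only 3 of 32 listed proteins of that kind were measured besides them. Oligodendrocyte myelin glycoprotein (OMG), which limits neurite growth, rose from a mean of 47.2 ± 6.18 (SD, n = 3) at E60 to one of 121 ± 18.3 (SD, n = 3) at E80, a difference of 1.35 on the log2 scale (SE 0.18, adjusted p = 0.0175 from limma). The adhesion molecules CDH13 (0.49, adjusted p = 0.403) and NCAM1 (0.18, adjusted p = 0.538) did not pass.

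The embryos of a day also differed from each other. Array 3 was the highest E60 array on 7 of the 9 probe sets. It stood above the mean of its day by 1.06 log2 units for LAMP5, by 0.22 to 0.55 on the probe sets of THY1, by 0.18 and 0.07 on those of NRN1 and by 0.28 on the second of SLC30A3. It was not the highest for VSNL1 (0.04) and was the lowest on the first probe set of SLC30A3 (-0.11). At E80 array 5 was the highest for LAMP5 (0.53) and VSNL1 (0.16) and the lowest for SLC30A3 (-0.75 and -0.65). Array 6 was the lowest for NRN1 (-0.38 and -0.35) and for VSNL1 (-0.17).

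**Figure D2:**
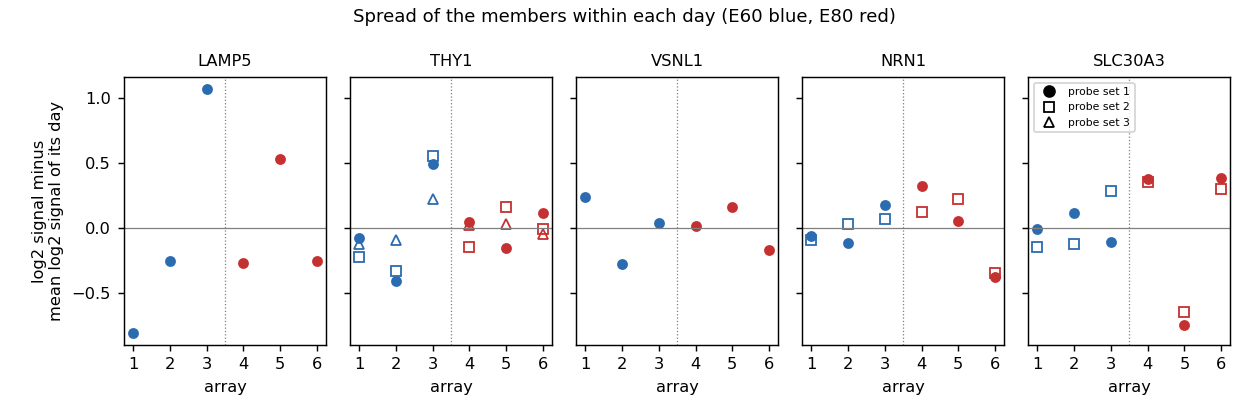
Log2 signal of each array minus the mean log2 signal of its day (vertical axis) for each gene, with arrays on the horizontal axis, E60 in blue, E80 in red and a marker per probe set. Array 3 is the highest E60 array on 7 of the 9 probe sets, array 5 is low on both probe sets of SLC30A3 and array 6 on both of NRN1. The probe sets of SLC30A3 differ in sign on arrays 2 and 3, those of NRN1 on array 2 and those of THY1 on arrays 4, 5 and 6.

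Over the 6 arrays, as a description, the deviations from the day means of the 2 SLC30A3 probe sets had a Pearson correlation of 0.85, those of NRN1 0.81, and those of the 3 pairs of THY1 0.81 to 0.92. LAMP5 had correlations of 0.57 to 0.91 with the THY1 probe sets, 0.06 with VSNL1 and -0.52 with the first SLC30A3 probe set. All of these share the same 6 embryos, and the deviations within a day sum to 0, so few of the 6 points are free. The pooled SD within a day was above the median of probe sets of similar brightness on 8 of the 9 probe sets, and just below it (0.138 against 0.143) on the third of THY1.

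The genes whose signals followed each of the 5 most closely over the 6 arrays were sought among 6087 to 6089 probe sets with 1 symbol and a signal above the median. Since the arrays fall into 2 days, a high correlation is set in large part by the step between the days. It is given as a description. For LAMP5 the closest was TMEM54 (Pearson correlation 0.995), followed by the respiratory chain protein NDUFA4 (0.989) and the calcium-dependent kinase CAMK2G (0.988). The study named the probe set of TMEM54 hippocalcin, a calcium sensor of the VSNL1 family. It was picked here by its likeness to LAMP5, which was itself chosen on the contrast of the days. Its log2 difference of 1.71 (SE 0.30) is therefore a description without a p-value, and it is not counted among the sensors above. It read 222, 244 and 486 at E60 and 907, 1305 and 786 at E80. TMEM54 thus shared with LAMP5 both the high array 3 and the high array 5.

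The first probe set of THY1 was followed by the chemokine CXCL14 (0.998), the vesicle motor MYO5A (0.995) and the tetraspanin CD81 (0.991). CXCL14 read 127, 110.2 and 147 at E60 and 213, 203 and 224 at E80, a smaller step than that of THY1 in the same order of arrays. VSNL1 was followed by the neuronal vesicle protein NRSN1 (0.995), the synaptic adhesion protein NPTN (0.994) and the carboxypeptidase CPD (0.992). NRSN1 read 285, 249 and 259.7 at E60 and 423, 449 and 410.0 at E80.

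NRN1 was followed by the deubiquitinase USP7 (0.999), COQ6 of coenzyme Q synthesis (0.987) and the sorting nexin SNX6 (0.986). USP7 had a log2 difference of -0.55, against -0.24 for COQ6 and -0.17 for SNX6, so the likeness is one of shape and not of size. SLC30A3 was followed by the traffic protein TRAPPC2 (0.993), the urea cycle enzyme ASL (0.992) and the peroxidase GPX1 (0.989). All 3 had array 5 as the lowest of the E80 arrays, with 262 against 430.2 and 391 for TRAPPC2.

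**Figure D3:**
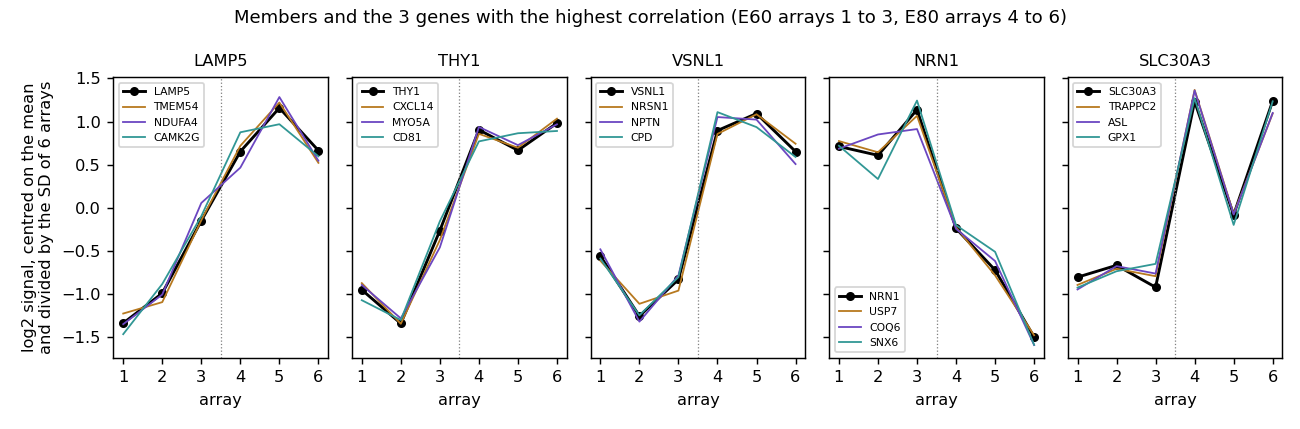
Log2 signal of the brightest probe set of each gene (black) and of the 3 genes with the highest Pearson correlation to it (coloured), centred and divided by the SD of the 6 arrays (vertical axis), with arrays on the horizontal axis and the days parted by the dotted line. The lines only join the arrays for reading and stand for no order, and a dip at array 5 marks SLC30A3 and the genes beside it.

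Other genes of maturing neurons and synapses lay on the side of LAMP5, THY1, VSNL1 and SLC30A3. Of 54 listed genes 14 were measured, all 14 lay higher at E80 by their mean log2 signals (44.3% of all probe sets did), and 5 rose (0.933% of all probe sets did). On 11 of the 14 all E80 arrays were above all E60 arrays, as on 9.25% of all probe sets, and the median log2 difference was 0.45, against -0.05 over all probe sets. Synapsin I (SYN1), which ties synaptic vesicles to the cytoskeleton, rose by 0.95 (SE 0.17, adjusted p = 0.0378 from limma) and the calcium-dependent kinase CAMK2B by 0.62 (SE 0.12, adjusted p = 0.0425). The sodium pump subunit ATP1B1 (0.56), the vesicle GTPase RAB3A (0.55) and the fusion protein SNAP25 (0.46) rose at adjusted p of 0.0248 to 0.0342, while the second probe set of ATP1B1 did not pass (0.45, adjusted p = 0.155). The vesicle calcium sensor SYT1 (0.37, adjusted p = 0.0600), the neuronal enolase ENO2 (0.62, adjusted p = 0.0987) and the vesicle fusion protein VAMP2 (0.57, adjusted p = 0.202) did not pass. Without array 6 none of the 14 passed, and without array 5 only 2 did. Neurogranin, n-chimaerin, dendrin and the heavy neurofilament chain are also on the list, but no probe set carries their symbol alone. The study, with its own annotation, lists them as higher at E80 on these arrays. By quantitative real-time PCR it found the same direction for neurogranin, n-chimaerin and the heavy neurofilament chain. The list was chosen with earlier results of these data known, so these genes are not counted as further support for it.

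Genes of immature and migrating neurons were read beside NRN1, and 10 of 31 were measured. DPY19L1, known from radial migration, fell from a mean of 466 ± 56.0 (SD, n = 3) at E60 to one of 193 ± 31.0 (SD, n = 3) at E80, a difference of -1.28 on the log2 scale (SE 0.15, adjusted p = 0.0159 from limma), and 1.01% of all probe sets fell. The other 9 did not pass, among them NNAT (-0.40, adjusted p = 0.254), MLLT11 (0.16, adjusted p = 0.286) and the growth cone stathmin STMN2 (0.19, adjusted p = 0.294). The median log2 difference of the 10 measured genes was -0.02, with 5 genes higher and 5 lower at E80. INSM1 is also on the list, but no probe set carries its symbol alone. The study, with its own annotation, lists it as lower at E80 on these arrays. This list too was chosen with earlier results of these data known.

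LAMP5 marks a class of interneurons in the adult, and 7 of 20 listed interneuron genes were measured. Calretinin (CALB2) rose by 1.37 (SE 0.20, adjusted p = 0.0218 from limma), a call that was also lost without array 6, where its signal was the highest (841). The study lists calretinin as higher at E80 on these arrays and found the same direction by quantitative real-time PCR. The transmitter genes NPY (-0.40, adjusted p = 0.155), CCK (0.51, adjusted p = 0.385) and the homeobox gene DLX5 (-0.50, adjusted p = 0.468) did not pass.

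**Figure D4:**
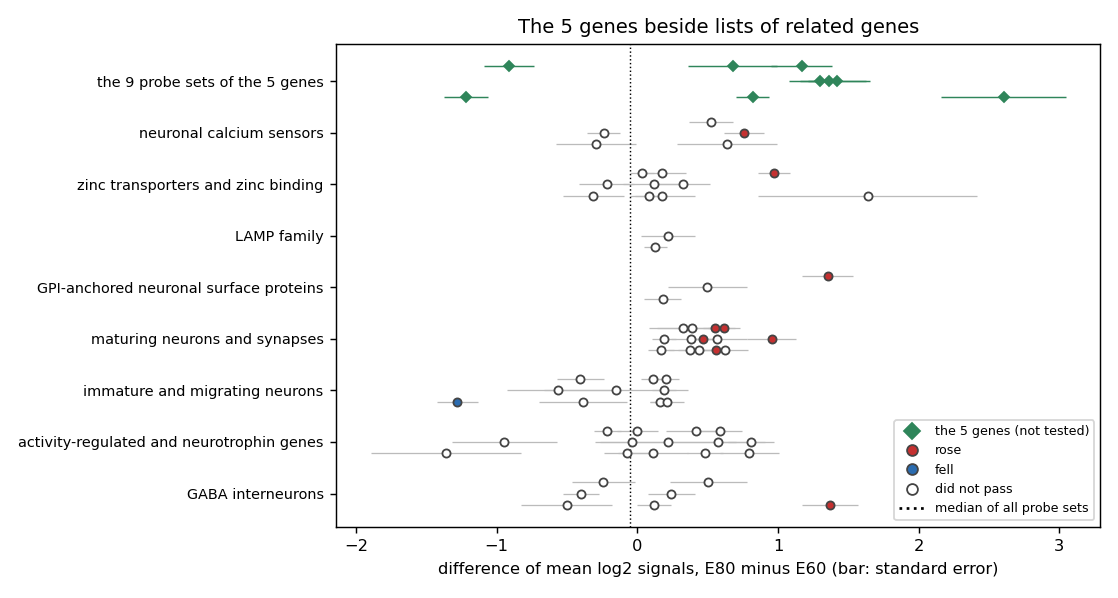
Difference of mean log2 signals between E80 and E60 (horizontal axis, bars are standard errors) for the 9 probe sets of the 5 genes (green, not tested) and for the measured genes of 8 related lists, filled red where they rose, filled blue where they fell and open where they did not pass. The maturing neuron and synapse genes all lie right of the dotted median of all probe sets, and LAMP5 lies farther right than any other point.

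Other cells also differed between the days or between single arrays, and their markers are given here for the whole report. The median signal of the arrays was 55.6 to 64.8, and Spearman correlations across probe sets were 0.967 to 0.984 within a day and 0.964 to 0.972 between days. The median log2 signal of 7 astrocyte markers, relative to the E60 mean, was 0.37 to 0.95 on the E80 arrays, and 2 of them (GFAP and ALDOC) rose, beside 0.933% of all probe sets. Of 5 radial glia markers 2 were higher on average at E80 and 3 lower, and their median difference was -0.03, against -0.05 over all probe sets. The homeodomain gene HOPX rose by 0.84 (SE 0.12, adjusted p = 0.0226 from limma). PROM1, a stem cell membrane protein, was 1.36 higher but did not pass (adjusted p = 0.0516). VIM (-0.38, adjusted p = 0.179) and HES1 (-0.34, adjusted p = 0.287) were lower without overlap and did not pass, and FABP7 hardly differed (-0.03). For 7 oligodendrocyte markers the median log2 signal, again relative to the E60 mean, was 0.39 to 1.20 on the E80 arrays. None of these passed, with 4 higher at an unadjusted p under 0.05, as were 7.12% of all probe sets. On array 6 the sum of 7 microglial markers was 650 against 182 to 283 on the others, and that of 4 choroid plexus markers was 5463 against 88.6 to 196. TTR alone gave 4475 of the choroid plexus sum on array 6. The striatal genes DRD2 and RXRG summed to 258 to 747 at E60 and 91.9 to 405 at E80, and of the defining projection neuron markers only CUX1 was measured, at 187 to 289. Without array 6 the difference between the days was 2.73 log2 units for LAMP5, 1.36 for the first probe set of THY1, 1.38 for VSNL1 and 1.17 for the first of SLC30A3.

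**Figure D5:**
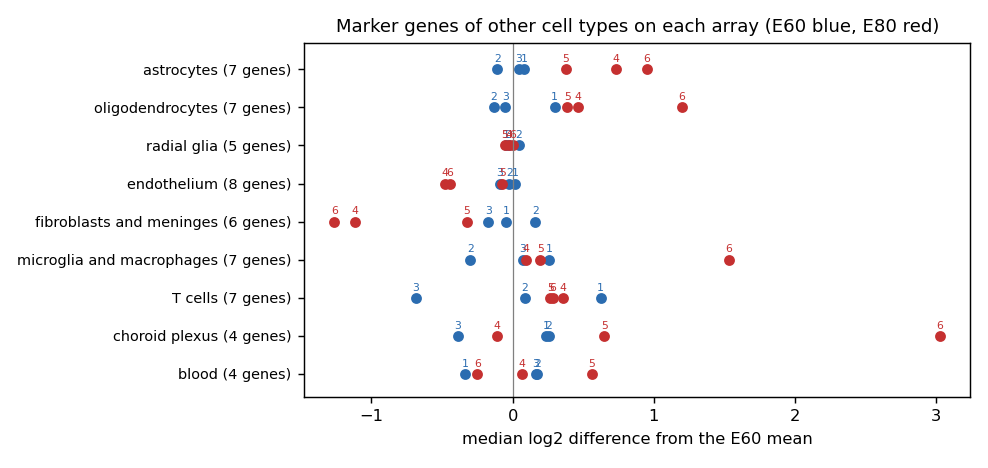
Median log2 difference of the marker genes of other cell types from their E60 means (horizontal axis) on each array, with the array number beside each point, E60 in blue and E80 in red. Array 6 stands apart for choroid plexus and microglia, arrays 4 and 6 for fibroblasts and meninges, and the astrocyte markers are higher on all E80 arrays.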

How the data were processed

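The authors deposited 1 linear intensity per probe set and array, made with MAS5 and multiplied by 1 factor per array. Their mean without the lowest and highest 2% is 150.02 on every array. The sources used here give neither the version of MAS5 nor detection calls for single probe sets nor a filter. Every column belongs to 1 of the 6 arrays, and the days come from the labels. The 124 control probe sets were left out. Signals were taken to log2 without a pseudocount, which leaves dim probe sets noisy. Symbols come from the platform's annotation. For the related genes, each read by its brightest probe set, the days were compared in R 4.3.3 with a linear model per probe set (limma 3.58.1, moderated with a variance trend on signal), with Benjamini-Hochberg adjustment across the 23999 and a threshold of 0.05. Rose and fell are used only past that threshold. The test was first tried on simulated data. In each list, the genes that passed and up to 3 others with the smallest p are named. For the genes most like a member, the 3 with the highest Pearson correlation over the arrays are named. The members, lists and rules were chosen with earlier results of these data known. The series' design text speaks of 3 litters without tying them to arrays, so embryos may share a litter, and p-values measure only the spread between these embryos. Arrays have no counting depth, and the precision is limited by their number, 3 per day. The alternatives were quantile normalization, a common array median, a pseudocount of 32, only the brightest 66%, no intensity trend, array weights, a 3-fold rule after the study's threshold and leaving out each array. No sequence of the probe sets was used here.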

Additional observations from a re-analysis of the deposited data

How the results depend on the processing

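The log2 differences of all 9 member probe sets were also read in other settings. These left out each array, changed the normalization, added 32 to each signal or kept the brightest 66%. The signs stayed the same and each shift was below the SD within a day, pooled over both days. With 3 arrays per day, leaving out 1 cannot move a difference by more than that SD. Where the days do not overlap, neither this nor adding 32 can turn the sign. Keeping the brightest 66% leaves the difference itself unchanged. Nothing is therefore read from this stability. LAMP5 ran from 2.07 (32 added to each signal) to 3.14 (without array 3), and the second SLC30A3 probe set from 0.37 to 1.00.

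The counts of calls varied between the settings. Over all probe sets 224 rose and 243 fell. With a common array median, which moved the median log2 difference of all probe sets from -0.05 to 0.06, 311 rose and 108 fell. With the brightest 66%, 353 rose and 410 fell, with array weights 520 rose and 649 fell, and by a rule of at least 3-fold with no overlap between the days 151 were higher and 140 lower. That rule takes the study's threshold but not its exact procedure, and its set of probe sets is not the study's list. Without the intensity trend 0 rose and 0 fell in limma, with 3706 under an unadjusted p of 0.05, so that each related list had 0 calls too. Leaving out 1 array gave 0 to 178 risen and 1 to 189 fallen probe sets. Of the maturing neuron and synapse genes, 5 rose, 3 with quantile normalization and 0 to 4 without 1 array. Of the neuronal calcium sensors 1 rose, 0 with 32 added to each signal and 0 without any 1 array. The zinc, GPI-anchored and interneuron lists each had 0 to 1 risen, and the immature neuron list 0 to 1 fallen, without 1 array. Of the activity-regulated genes 0 rose, 1 with a common array median, 1 with the brightest 66% and 2 with array weights. The 10 related genes that had been called kept their direction in every setting, with adjusted p of 0.00797 to 0.183. The cause of these differences was not tested. No paired analysis was possible because the sources used here do not give the litter of a single array, and the array numbers are not shared between the days.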
